A study of Bos taurus with 6 samples.

Results

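The genes described here are 9 structural genes of the smooth muscle contractile apparatus, grouped around transgelin: TAGLN, ACTA2, CNN1, MYH11, SMTN, CALD1, MYL9, TPM1 and TPM2. They were taken by symbol from the array annotation, which gave 10 probe sets for 8 of the 9 genes, out of 24016 probe sets and 9155 named genes in all. TPM1 and TPM2 had 2 probe sets each, the other 6 genes had 1 each, and MYL9, the regulatory myosin light chain, was not analysed here. The 2 groups were primary bovine aortic endothelial cells given 5 ng/ml TGF-beta 1 for 24 hours and the same kind of cells left without treatment (basal), with 3 arrays each. The cells had been freed from bovine aorta with collagenase and were grown in RPMI medium. According to the labels the triplicates came from 3 cultures. The number, age and sex of the animals, and whether a treated and a basal array shared a culture, are not given in the sources used here, so the p-values rest on the spread between arrays, which may be technical. The array was an Affymetrix bovine design, and expression is given as log2 values from RMA, where 1 unit is a doubling.

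Smooth muscle contracts when myosin pulls on actin filaments. ACTA2 encodes the actin and MYH11 the myosin heavy chain of that tissue. Tropomyosins (TPM1, TPM2) lie along the actin filament, while caldesmon (CALD1) and calponin (CNN1) bind actin and restrain the myosin ATPase. Smoothelin (SMTN) is bound to actin filaments in contractile cells. Transgelin (TAGLN, also called SM22-alpha) is a calponin-related protein that binds and bundles actin. Many of these genes carry CArG boxes, sites for the transcription factor SRF, and TGF-beta is a classical inducer of the programme in mesenchymal cells and in endothelial cells that take on mesenchymal features. TAGLN, CALD1 and TPM1 are not limited to muscle, since many cultured adherent cells express them, whereas MYH11 and SMTN are used as markers of differentiated smooth muscle.

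Treatment was not the main difference between the arrays. Most of the variance (63.4%) lay along 1 principal component. Treated array 1 scored -10.3 on it and basal arrays 1 and 2 scored -67.8 and -38.8. Treated arrays 2 and 3 scored 39.5 and 41.4, and basal array 3 scored 36.0. Treated array 3 correlated at 0.987 with basal array 3 and at 0.975 with treated array 1 across probe sets. Basal array 3 thus stood with treated arrays 2 and 3 by this measure. Treated array 1 correlated at 0.977 with treated array 2, and at 0.963 and 0.974 with basal arrays 1 and 2. By this measure it was not closer to those basal arrays, so its place below rests on the sign of its score. The arrays at negative scores are called the first array set (treated 1, basal 1 and 2) and those at positive scores the second array set (treated 2 and 3, basal 3). The sets were read from the data and are not groups of the study. Results on the members are given also with this split kept as a block. The block was taken from the same values that it is fitted to, so its standard errors, intervals and p-values may be too small. Treated and basal arrays are unevenly spread over the sets, so block and treatment are partly confounded. The block fits are therefore given as a description. Array medians lay between 5.88 and 5.92 log2, and 25th percentiles between 4.52 and 4.60. RMA gives no detection call, so a probe set near the 25th percentile was not shown to be above background.

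TAGLN rose and was the 1 member that passed the test. Its probe set (Entrez gene 513463) read 12.18, 12.33 and 11.92 log2 in treated arrays 1 to 3, against 9.90, 9.78 and 10.18 log2 in basal arrays 1 to 3. The lowest treated array was thus above the highest basal array by more than either group's range. The means were 12.14 ± 0.21 log2 in treated and 9.95 ± 0.20 log2 in basal cultures (SD, n = 3 each), a difference of 2.19 log2 (SE 0.16), or 4.56-fold with a 95% interval of 3.50 to 5.94 (limma adjusted p = 0.0273 over all probe sets). Whether more cells expressed the gene or each cell expressed more of it cannot be told apart in RNA from whole cultures. Among the 9155 genes this was the 20th largest rise, and by unadjusted p TAGLN ranked 4th. The basal arrays already read far above their medians of 5.88 to 5.90 log2. The mean of TAGLN over all arrays, treated ones included, ranked above that of 97.7% of probe sets.

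Of the 10 member probe sets, 1 passed in the upward direction and none downward (limma, with 4 of the 10 at an unadjusted p under 0.05, against 13.7% of all probe sets). Over all 24016 probe sets 0.304% passed as higher and 0.354% as lower, 0.658% in all. Counted with 1 probe set a gene, 1 of 8 members passed as higher, against 0.371% of all genes as higher, 0.644% as lower and 1.02% in either direction. The members were chosen with results of these data known, so these shares are given only as a description. Apart from the test, in 4 of the 10 probe sets, those of TAGLN and CALD1 and both of TPM1, all treated arrays lay above all basal arrays, which held for 7.61% of all probe sets. None lay wholly below, against 11.6% of all probe sets, and 19.2% of all probe sets were apart in either direction. Counted by gene, 3 of the 8 members were apart, against 23.3% of all genes. The median change of the 8 genes was 0.15 log2, against -0.03 log2 over all genes.

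**Figure D1:**
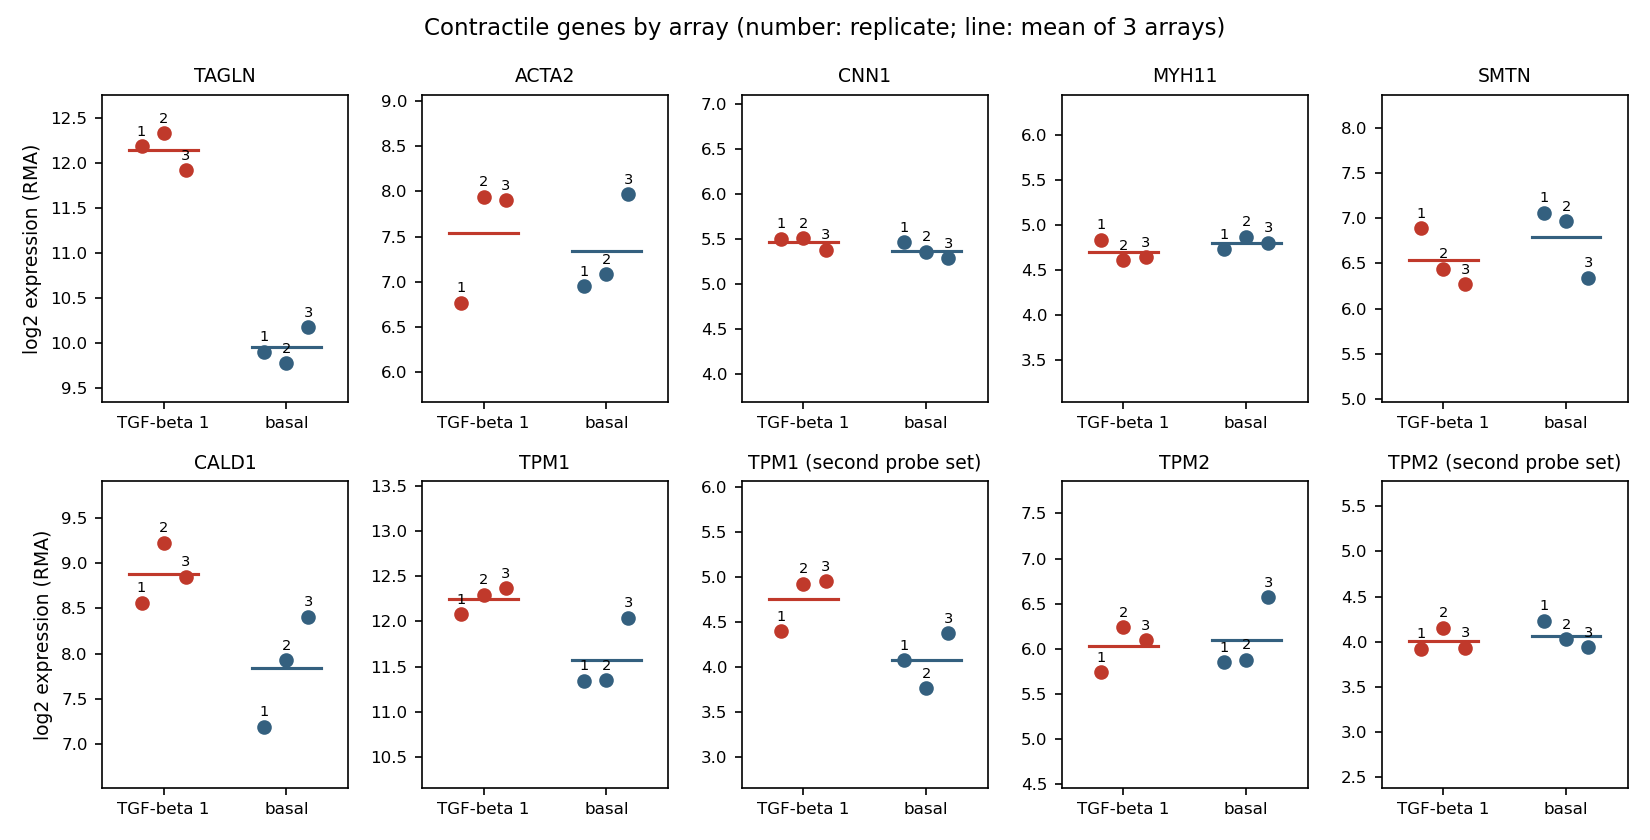
Log2 expression (RMA) of each of the 10 probe sets in 3 arrays of TGF-beta 1-treated cells (red, left) and 3 arrays of basal cells (blue, right), with the replicate number above each point and a line at the group mean. Every panel spans the same number of log2 units. TAGLN, CALD1 and both probe sets of TPM1 have all treated points above all basal points, while in ACTA2 basal array 3 stands level with treated arrays 2 and 3.

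The TAGLN call depended on which arrays were kept. Leaving out 1 array at a time, the change stayed between 2.10 and 2.30 log2, but the call ended without treated array 1 (limma adjusted p = 0.0699), treated array 2 (0.168), treated array 3 (0.0729), basal array 1 (0.0965) or basal array 2 (0.165). In those same fits only 1 to 12 of all probe sets passed. Without basal array 3 it passed (0.00733), and with the array sets as a block TAGLN stood at 2.14 log2 (SE 0.15, limma adjusted p = 0.00523). In these fits 2012 and 1348 of all probe sets passed, against 158 in the main fit. Within the first array set the treated array exceeded the mean of the basal arrays by 2.34 log2, and within the second the treated mean exceeded the basal array by 1.95 log2.

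ACTA2, the smooth muscle actin, did not follow TAGLN. It read 6.77, 7.94 and 7.90 log2 in treated arrays 1 to 3 and 6.95, 7.08 and 7.97 log2 in basal arrays 1 to 3. The groups overlapped fully: the lowest value was that of treated array 1 and the highest that of basal array 3. The means were 7.54 ± 0.67 log2 in treated and 7.33 ± 0.56 log2 in basal cultures (SD, n = 3 each), a difference of 0.20 log2 (SE 0.42, 95% interval -0.82 to 1.22, limma adjusted p = 0.881). That interval alone leaves room for a rise or a fall of moderate size. The values went instead with the array sets, which differed by a mean of 1.05 log2, 1.15 log2 within treated and 0.95 log2 within basal cultures. A larger difference between the array sets was found in 6.75% of genes. Within the sets the treatment difference was -0.25 log2 in the first and -0.05 log2 in the second. With the sets as a block it was -0.15 log2 (SE 0.10, 95% interval -0.39 to 0.08, limma adjusted p = 0.459), so its sign changed. The interval was narrower, but it may be too narrow, since the block was read from the same data.

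**Figure D2:**
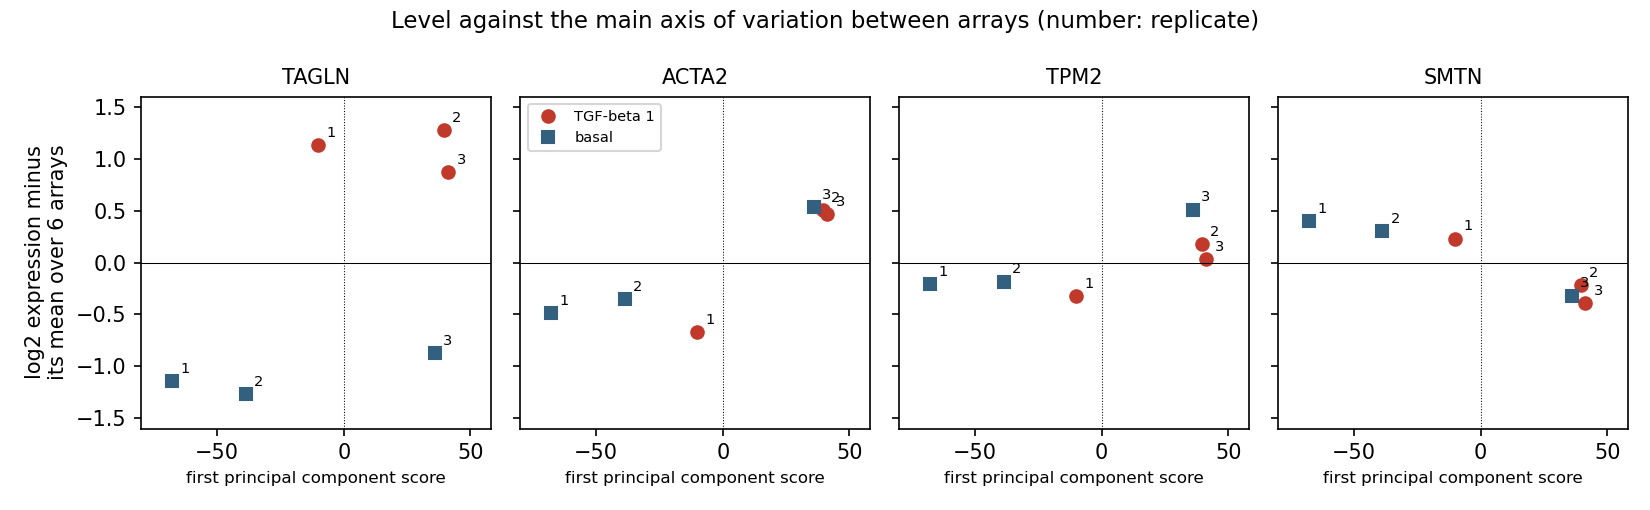
Log2 expression of TAGLN, ACTA2, TPM2 and SMTN in each array, minus the gene's mean over the 6 arrays, against the array's score on the first principal component of all probe sets (red circles: TGF-beta 1; blue squares: basal; numbers: replicates). TAGLN parts by treatment at both ends of the axis, whereas ACTA2, TPM2 and SMTN part by the side of the axis on which an array lies.

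CALD1 and TPM1, which encode actin filament proteins of muscle and nonmuscle cells, had the next largest differences. CALD1 read 8.56, 9.23 and 8.85 log2 in treated arrays and 7.19, 7.93 and 8.41 log2 in basal arrays. All treated arrays were above all basal arrays, with basal array 3 close under treated array 1. The means were 8.88 ± 0.33 log2 in treated and 7.84 ± 0.61 log2 in basal cultures (SD, n = 3 each), a difference of 1.04 log2 (SE 0.34, 95% interval 0.21 to 1.87), and it did not pass (limma adjusted p = 0.258). Within the first array set the difference was 1.00 log2 and within the second 0.63 log2. With the sets as a block it was 0.82 log2 (SE 0.23, limma adjusted p = 0.109), and without basal array 3 it was 1.32 log2 (limma adjusted p = 0.0543). Caldesmon has a smooth muscle and a nonmuscle splice form, and which of them the probe set measured is not given in the sources used here.

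TPM1 was read by 2 probe sets of very different brightness that gave nearly the same difference. The brighter read 12.08, 12.30 and 12.37 log2 in treated arrays and 11.34, 11.35 and 12.04 log2 in basal arrays, and its mean ranked above that of 99.0% of probe sets. Basal array 3 again lay just under the lowest treated array. The difference was 0.67 log2 (SE 0.22, 95% interval 0.14 to 1.20, limma adjusted p = 0.254). The dimmer read 4.40, 4.92 and 4.96 log2 in treated arrays and 4.08, 3.77 and 4.38 log2 in basal arrays, on both sides of the 25th percentile of the arrays. Its difference was 0.68 log2 (SE 0.22, 95% interval 0.15 to 1.22, limma adjusted p = 0.254). With the array sets as a block the brighter stood at 0.51 log2 (limma adjusted p = 0.0699) and the dimmer at 0.52 log2 (limma adjusted p = 0.0573). The brighter passed without basal array 3, at 0.90 log2 (limma adjusted p = 0.0204), the 1 fit with a second member past the threshold. In that fit both basal arrays came from the first array set, and 2012 of all probe sets passed.

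TPM2, the second tropomyosin of smooth muscle, did not share this pattern. Its brighter probe set read 5.74, 6.24 and 6.10 log2 in treated arrays and 5.85, 5.88 and 6.57 log2 in basal arrays, with the highest value in basal array 3. The difference was -0.07 log2 (SE 0.24, 95% interval -0.66 to 0.51, limma adjusted p = 0.931), and -0.26 log2 (SE 0.10, limma adjusted p = 0.225) with the array sets as a block. The second probe set lay between 3.92 and 4.15 log2 in treated arrays and between 3.94 and 4.23 log2 in basal arrays, all below the 25th percentile of the arrays.

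The markers of differentiated smooth muscle lay low or did not pass. MYH11 read 4.84, 4.61 and 4.64 log2 in treated arrays and 4.73, 4.87 and 4.80 log2 in basal arrays. All of these values were just above the 25th percentile of the arrays, and the difference was -0.10 log2 (SE 0.10, 95% interval -0.35 to 0.14, limma adjusted p = 0.724). CNN1 read 5.50, 5.51 and 5.38 log2 in treated arrays and 5.46, 5.36 and 5.28 log2 in basal arrays, below every array median. The groups overlapped, and the difference was 0.09 log2 (SE 0.09, 95% interval -0.13 to 0.32, limma adjusted p = 0.730). Since RMA compresses differences near background, these intervals bound the signal of the probe sets and not the transcripts. SMTN was brighter and read 6.89, 6.44 and 6.27 log2 in treated arrays and 7.06, 6.97 and 6.34 log2 in basal arrays. It was high in the first array set and low in the second in both groups, the reverse of ACTA2. The difference was -0.26 log2 (SE 0.25, 95% interval -0.87 to 0.36, limma adjusted p = 0.727), and -0.05 log2 (SE 0.10) with the array sets as a block.

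To set TAGLN directly against the other members, the log2 value of each was subtracted from that of TAGLN in the same array, which cancels what an array shares between both probe sets. What differs between arrays in the other member alone is brought in. The second array set minus the first was 0.14 log2 in TAGLN, 1.05 log2 in ACTA2 and -0.60 log2 in SMTN. TAGLN minus ACTA2 was 5.41, 4.39 and 4.02 log2 in treated arrays and 2.96, 2.69 and 2.20 log2 in basal arrays. The groups did not overlap, and the response of TAGLN exceeded that of ACTA2 by 1.99 log2 (SE 0.47), a 3.97-fold difference in response. Leaving out 1 array at a time, this lay between 1.58 and 2.28 log2. The excess over SMTN was 2.44 log2 (SE 0.38), over MYH11 2.29 log2 (SE 0.19), over TPM2 2.26 log2 (SE 0.22) and over CNN1 2.10 log2 (SE 0.17). It was smaller over the brighter TPM1 probe set, at 1.52 log2 (SE 0.21), and smallest over CALD1, at 1.15 log2 (SE 0.35). In contrasts that kept the array sets as a block, which were added after seeing the data, the excess was 2.41 log2 (SE 0.11) over TPM2, 2.29 log2 (SE 0.23) over ACTA2, 2.21 log2 (SE 0.19) over MYH11, 2.20 log2 (SE 0.17) over SMTN, 2.02 log2 (SE 0.17) over CNN1, 1.63 log2 (SE 0.18) over TPM1 and 1.32 log2 (SE 0.31) over CALD1. The order of the larger ones thus differed between the fits, and CALD1 and TPM1 had the smallest excess in both. In all 7 contrasts every treated array was above every basal array. The 7 share the same TAGLN values, whose groups already lay apart, so they are not independent of each other. The exact permutation test, two-sided, gave p = 0.1 for each of them, which is the smallest p that 3 arrays against 3 allow, and 0.1 after adjustment over the 7, so this test cannot reach 0.05 here. The absolute gap between 2 probe sets depends on their probes, and only its difference between groups is a measure of response.

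**Figure D3:**
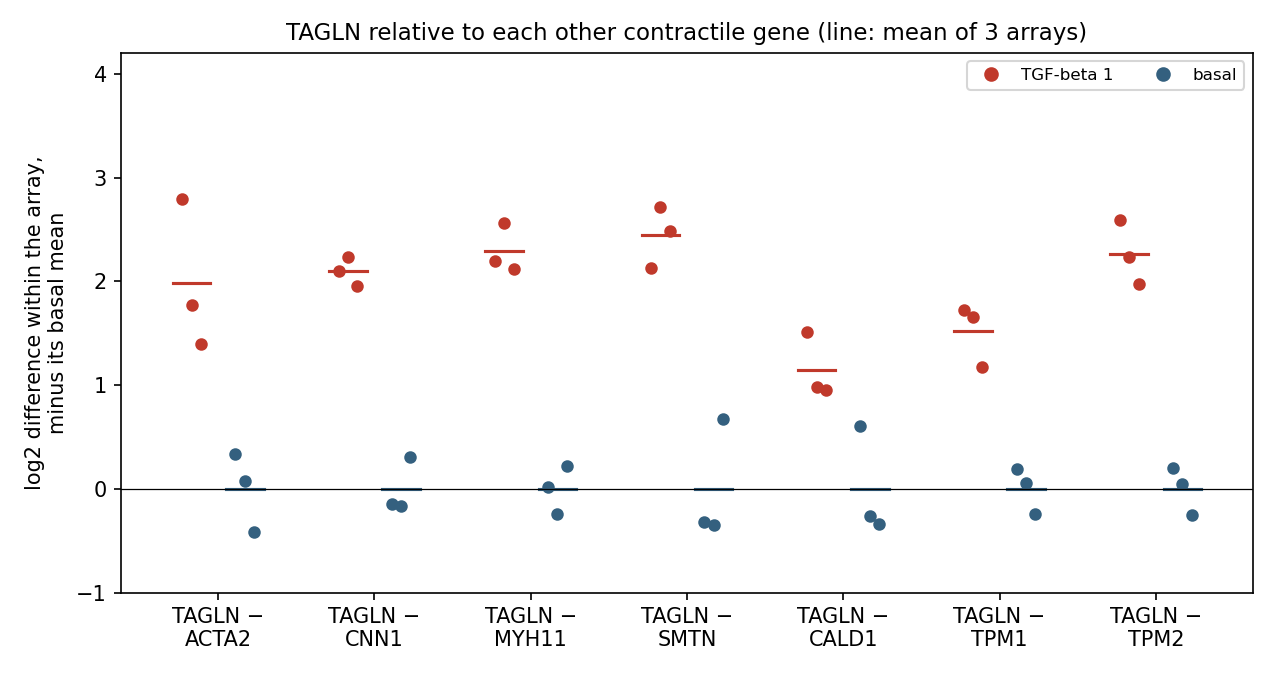
Log2 value of TAGLN minus that of each other member in the same array (brighter probe set of TPM1 and TPM2), with the basal mean of each contrast set to 0 (red, left: 3 TGF-beta 1 arrays; blue, right: 3 basal arrays; lines: means). In all 7 contrasts the treated points lie above the basal points, with means from 1.15 log2 for CALD1 to 2.44 log2 for SMTN.

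The genes called nonmuscle relatives here are other genes of the members' protein families, and not all are limited to nonmuscle cells. Of 17 listed, 14 were measured. None of the 14 passed, where 1.02% of all genes did (limma, with 3 at an unadjusted p under 0.05, where 18.4% of all genes were). Their median change was 0.04 log2. The other transgelins did not move with TAGLN: TAGLN2 stood at -0.20 log2 (SE 0.29) and TAGLN3 at -0.07 log2 (SE 0.10). The cytoplasmic actins ACTB and ACTG1, near the top of the range, stood at 0.01 log2 (SE 0.09) and 0.08 log2 (SE 0.09). RMA compresses differences near saturation, so these bound the signal of the probe sets. A second, dimmer ACTG1 probe set stood at 0.58 log2 (SE 0.31, limma adjusted p = 0.499), with overlapping groups. In the calponin family CNN3, the acidic calponin, averaged 11.03 ± 0.07 log2 in treated and 10.41 ± 0.45 log2 in basal cultures, a difference of 0.62 log2 (SE 0.23, limma adjusted p = 0.319). CNN2 stood at 0.58 log2 (SE 0.25, limma adjusted p = 0.394), so both values were larger than that of CNN1 without passing, and the differences between calponins were not tested. TPM4, a tropomyosin of nonmuscle filaments, averaged 13.06 ± 0.09 log2 in treated and 12.59 ± 0.15 log2 in basal cultures, a difference of 0.47 log2 (SE 0.11, limma adjusted p = 0.145), while TPM3 stood at 0.05 log2 (SE 0.13). The nonmuscle myosin heavy chains MYH10 and MYH9 stood at 0.60 log2 (SE 0.34) and -0.12 log2 (SE 0.35). In CNN3, CNN2 and TPM4 all treated arrays lay above all basal arrays, as in 8.18% of all genes. In SMTNL2, a smoothelin-like gene below the 25th percentile of the arrays, they lay below (-0.24 log2, SE 0.09, limma adjusted p = 0.305), as in 15.1% of all genes.

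**Figure D4:**
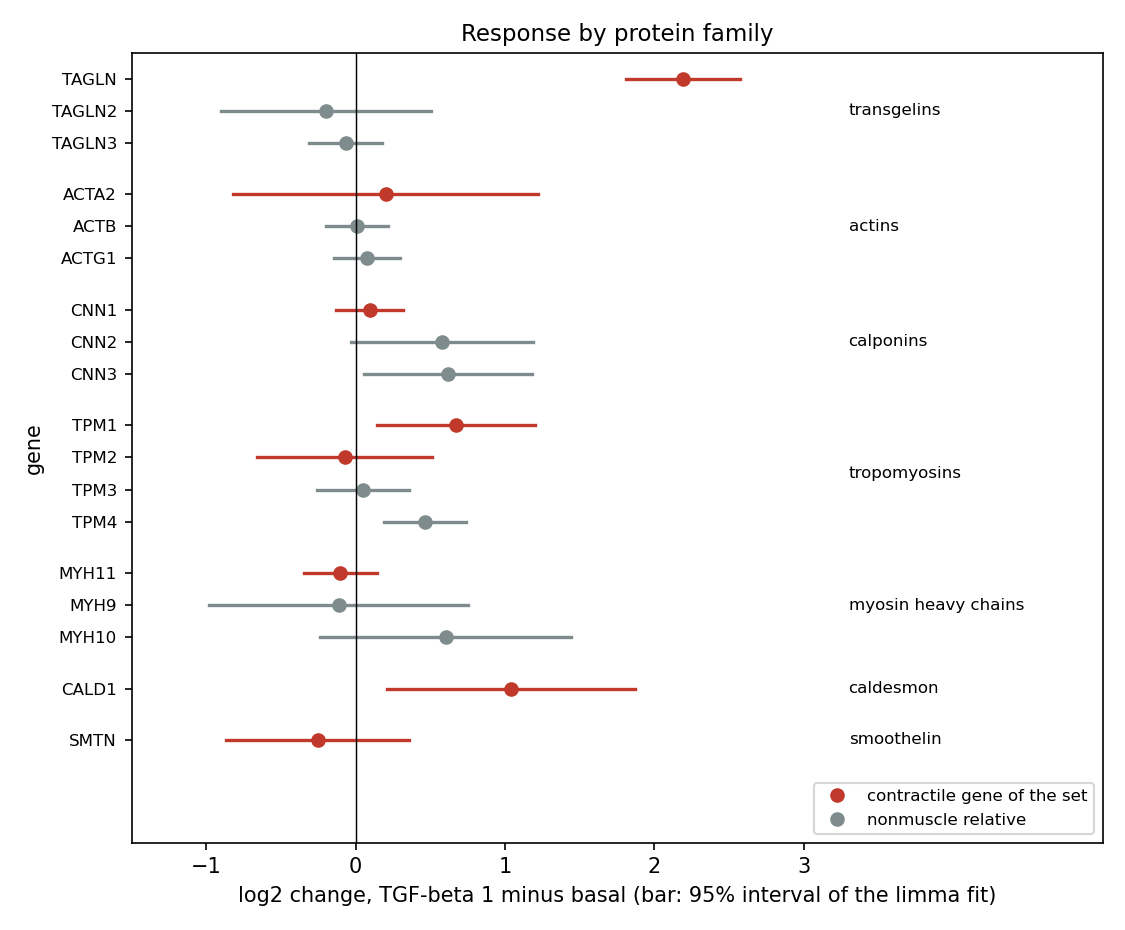
Log2 change, TGF-beta 1 minus basal, of the contractile genes (red) and of their nonmuscle relatives (grey), by protein family, with 1 probe set a gene. Points are differences of means over 3 arrays against 3 and bars are 95% intervals of the limma fit. The interval of TAGLN runs from 1.81 to 2.57 log2 and lies to the right of every other interval except the upper end of that of CALD1.

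Regulators of the contractile programme were read from a list of 26 genes, of which 13 were measured. CSRP2 and FHL2 passed as higher and none as lower, against 0.371% of all genes as higher and 0.644% as lower, and the list median was 0.01 log2. CSRP2 is a LIM protein that acts with SRF and GATA factors on smooth muscle genes. It read 12.07, 11.48 and 11.24 log2 in treated arrays and 9.23, 9.27 and 9.16 log2 in basal arrays, a rise of 2.38 log2 (SE 0.22, limma adjusted p = 0.0309). FHL2, a LIM protein that binds SRF and is itself a target of it, averaged 9.04 ± 0.20 log2 in treated and 7.91 ± 0.12 log2 in basal cultures, a rise of 1.13 log2 (SE 0.13, limma adjusted p = 0.0405). SRF itself stood at 0.01 log2 (SE 0.15, 95% interval -0.35 to 0.37). MEF2A stood at 0.64 log2 (SE 0.24), MEF2C at -0.35 log2 (SE 0.09) and GATA6 at -0.64 log2 (SE 0.20), with limma adjusted p = 0.323, 0.180 and 0.245. With the array sets as a block CSRP2 stood at 2.51 log2 (limma adjusted p = 0.00493) and FHL2 at 1.15 log2 (limma adjusted p = 0.0135). Both calls ended with the replicate number as a block (limma adjusted p = 0.103 and 0.113). They also ended without treated array 2 or 3 or basal array 1 or 2 (0.0945 to 0.248). The call of FHL2 ended too without treated array 1 (0.0867) and with limma-trend (0.0672). Myocardin (MYOCD) and the myocardin-related factors were not analysed here.

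Of 32 listed SRF targets of the actin cytoskeleton 28 were measured. FHL2 was the 1 that rose and FHL1, a related LIM protein of muscle, the 1 that fell, against 0.371% and 0.644% of all genes. FHL1 read 9.06, 8.95 and 9.01 log2 in treated arrays and 10.16, 10.03 and 10.21 log2 in basal arrays, a difference of -1.13 log2 (SE 0.09, limma adjusted p = 0.0286). Its call ended with the replicate number as a block (limma adjusted p = 0.103) and without any 1 array other than basal array 3 (0.0699 to 0.242). The groups lay far apart in both genes, in opposite directions. PDLIM7, a PDZ-LIM protein of actin filaments, stood at 0.42 log2 (SE 0.11, limma adjusted p = 0.179). The list median was 0.07 log2, and 7 of its genes had all treated above all basal arrays and 2 all below, where all genes gave 8.18% and 15.1%. Some genes stand in more than 1 list, FHL2 and TPM4 among them.

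The enzymes that set myosin light chain phosphorylation, and so contraction, held no gene that passed among 14 measured of 27 listed. Of all genes 1.02% passed (limma). In the list 2 had an unadjusted p under 0.05, beside 18.4% of all genes, and the median was 0.06 log2. CIT, the citron kinase, stood at -0.83 log2 (SE 0.20, limma adjusted p = 0.144), RND3, which opposes RHOA signalling, at 0.86 log2 (SE 0.32, limma adjusted p = 0.322) and ROCK2, a kinase driven by RHOA, at 0.59 log2 (SE 0.27, limma adjusted p = 0.425). The calmodulin gene CALM3 stood at -0.28 log2 (SE 0.16). MYLK, the myosin light chain kinase, averaged 5.18 ± 0.90 log2 in treated and 5.02 ± 0.43 log2 in basal cultures, a difference within the spread of either group.

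Other genes of smooth muscle, of which 15 of 25 listed were measured, held none that passed, beside 1.02% of all genes (limma). In the list 4 had an unadjusted p under 0.05, beside 18.4% of all genes, and the median was 0.00 log2. CRYAB and HSPB6, small heat shock proteins of muscle, stood at -0.69 log2 (SE 0.12, limma adjusted p = 0.0758) and -0.60 log2 (SE 0.17, limma adjusted p = 0.199), and FILIP1L stood at -0.52 log2 (SE 0.18). FBXO32, a ubiquitin ligase of muscle, stood at 1.13 log2 (SE 0.29, limma adjusted p = 0.172). The defining muscle genes DES (desmin), LMOD1 (leiomodin) and PLN (phospholamban) stood at -0.05, 0.11 and -0.04 log2, with PLN below the 25th percentile of the arrays.

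**Figure D5:**
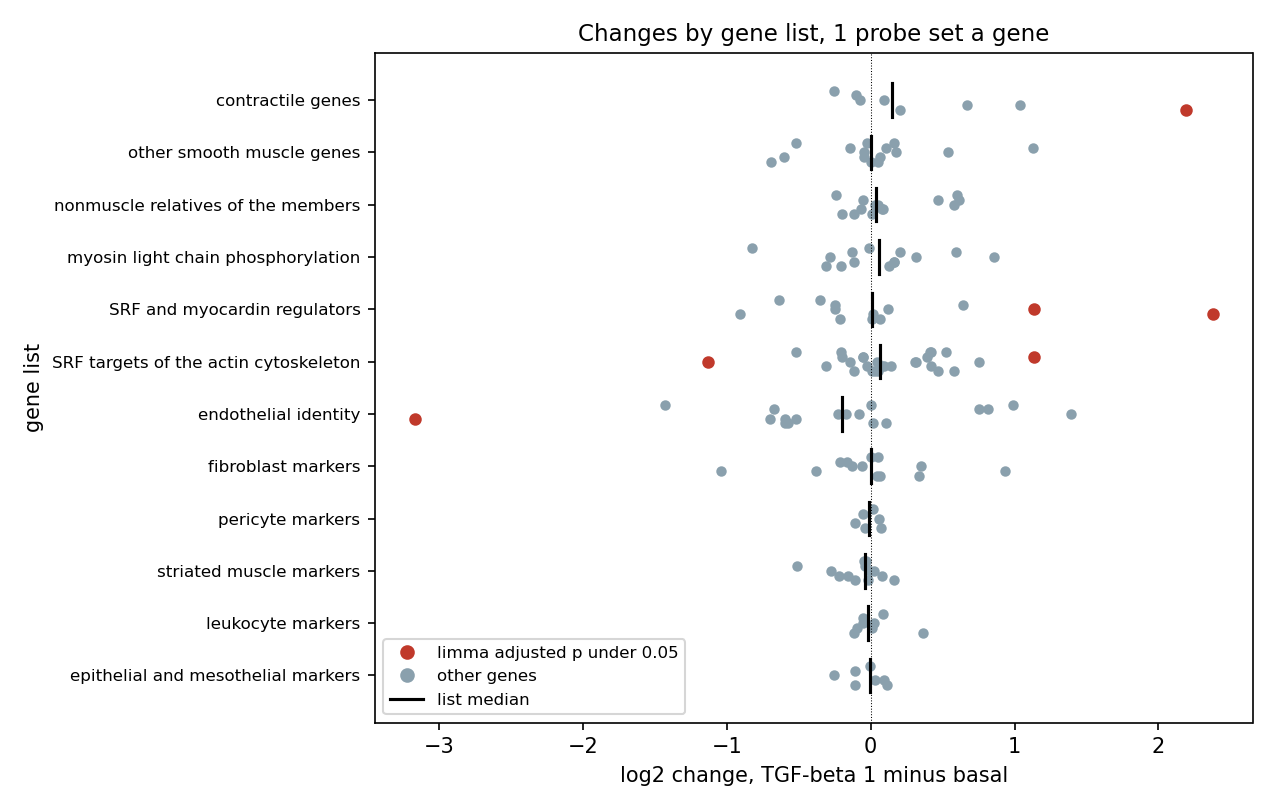
Log2 change, TGF-beta 1 minus basal, of each measured gene by list, with 1 probe set a gene (red: limma adjusted p under 0.05; grey: other genes; bar: list median). The contractile genes hold TAGLN as the 1 gene that passed. CSRP2, FHL2, FHL1 and CLDN5 are the 4 that passed in the other lists.

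The labelled cell type was checked against its markers. Over the 18 measured endothelial genes the median percentile was 94.2, against 69.5 over all genes, and 15 of the 18 ranked above 50. PECAM1 and CDH5, the endothelial adhesion proteins, had means above those of 99.1% and 98.9% of probe sets, whereas KDR and FLT1, the receptors for VEGF, ranked at percentiles 29.4 and 33.7, VWF at 53.1 and MMRN1 at 0.866. Of 18 measured endothelial genes of 24 listed, CLDN5, the claudin of endothelial tight junctions, was the 1 that passed as lower, at -3.17 log2 (limma adjusted p = 0.0474), and none passed as higher, against 0.644% and 0.371% of all genes. The CLDN5 call held with the array sets as a block (-2.94 log2, limma adjusted p = 0.0134). It ended with the replicate number as a block (0.116) and without any 1 array other than basal array 3 (0.139 to 0.254). It also ended with a further quantile normalization (limma adjusted p = 0.0577) and with robust eBayes (0.0538). The list median was -0.20 log2, and 10 of the 18 had an unadjusted p under 0.05, 7 lower and 3 higher, beside 18.4% of all genes. Without passing, PECAM1 stood at -0.52 log2 (SE 0.12) and the transcription factors FLI1 and SOX18 at -0.59 log2 (SE 0.10) and -1.43 log2 (SE 0.34). On the other side, with all treated above all basal arrays, EMCN stood at 0.82 log2 (SE 0.20), PLVAP at 1.40 log2 (SE 0.48) and ENG at 0.99 log2 (SE 0.38). Of the 18 genes 4 had all treated above all basal arrays and 9 all below, where all genes gave 8.18% and 15.1%. The mean log2 level over the 15 other smooth muscle genes lay between 6.92 and 7.32 in treated and between 6.75 and 7.23 in basal arrays, which overlapped. It lay between 6.81 and 6.93 in treated and between 6.79 and 7.01 in basal arrays for 13 fibroblast markers, and between 5.76 and 6.09 in treated and between 5.67 and 6.12 in basal arrays for 6 pericyte markers. Among the fibroblast markers LUM, DCN, DPT and FAP lay below the 25th percentile, but COL1A2 and COL3A1 had means above those of 98.4% and 97.0% of probe sets, and COL1A2 stood at 0.93 log2 (SE 0.33, limma adjusted p = 0.295) and S100A4 at -0.38 log2 (SE 0.20). None of the fibroblast, pericyte, striated muscle (13 measured), leukocyte (8) or epithelial and mesothelial markers (7) passed (limma, with 2, 0, 1, 0 and 0 at an unadjusted p under 0.05). Over all genes 1.02% passed and 18.4% had an unadjusted p under 0.05, so no call in lists of this size says little. The mean marker level of each of these types overlapped between the groups. The median percentile of these lists lay between 28.2 and 49.1, so the means include dim probe sets and can miss a change in few cells. The part of other cell types in the TAGLN result was not tested.

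The genes whose pattern over the 6 arrays was most like that of TAGLN were sought among 2509 other genes with a range of at least 1 log2, by Pearson correlation. The 6 highest were BPNT2 (r = 0.996), P2RY1 (0.996), PLEK2 (0.994), ATP1B1 (0.993), GAS2 (0.992) and SLC17A9 (0.992). P2RY1, a nucleotide receptor of endothelium, and PLEK2, a pleckstrin that acts on the actin cytoskeleton, stood at 1.80 log2 and 2.20 log2, close in size to TAGLN, and GAS2, which binds actin and microtubules, at 3.54 log2. The 6 genes most like ACTA2 were PNISR (0.994), MTRF1 (0.991), RNF168 (0.990), CHGA (0.989), ZNF572 (0.988) and CYP20A1 (0.988). In each of these 6 the groups overlapped and the second array set was above the first, as in ACTA2 itself, to which they were matched. These correlations describe the same 6 arrays that also differ by treatment and by array set, and carry no test.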

How the data were processed

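Per the submitters' processing notes, the authors used RMA and affy for the deposited log2 values, with no version stated. RMA subtracts an estimated background, brings the arrays to 1 distribution and summarises probes, so it compresses differences near background and near saturation. Labelled RNA came from 4 µg of total RNA, per the labels. Each column was assigned to its sample by accession. The 112 control probe sets were left out. The annotation gave 13292 probe sets 1 symbol, 86 several and 10638 none. Of the first, 13263 matched the RefSeq gene table of ARS-UCD2.0 by gene identifier, and 0 of them got another symbol. Coordinates in it were not used.

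Treated and basal arrays were compared by limma (version 3.58.1, R version 4.3.3), with lmFit and eBayes on a group term (4 residual and 1.97 prior degrees of freedom), on all 24016 probe sets, with two-sided p-values adjusted by Benjamini-Hochberg and a threshold of 0.05. No dim probe sets were filtered out. Intervals and standard errors are those of the fit. Standard errors of the TAGLN contrasts are from the pooled spread between arrays. Lists were counted from the same fit with the probe set of highest mean for each gene. On simulated arrays of 24016 probe sets (3 against 3) the fit recovered 1.02% of changes of 0.5 log2, 50.1% of changes of 1 log2 and 88.7% of changes of 2 log2, and 63 of 991 calls were false. These rates hold for the simulated arrays only. In the data the number of called probe sets ran from 0 to 2012 between the alternatives.

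The members, lists, alternatives and array sets were chosen with earlier results of these data known. The rule for named genes took all members, the 4 genes of smallest p and any called in each list, and the 6 most like TAGLN and ACTA2. For pericyte, striated muscle, leukocyte and epithelial or mesothelial markers only counts and levels are given. Other genes named, such as TAGLN2, TAGLN3, the actins, TPM3, MYH9, MYH10, SRF, DES, LMOD1, PLN and MYLK, were picked by function, and PLVAP and ENG after their values were seen. The alternatives comprised limma-trend, robust eBayes, centred array medians, a second quantile normalization, the replicate number or the array sets as a block, a filter at the median, 1 probe set a gene, a threshold of 0.1 and leaving out each array. Plots used matplotlib 3.10.9 (Python 3.11.15).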

Additional observations from a re-analysis of the deposited data

How the results depend on the processing

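TAGLN kept its direction in all 15 alternatives (2.10 to 2.30 log2). Its call ended with the replicate number as a block (2.19 log2, limma adjusted p = 0.103), where none of the 10 member probe sets, none of 137 genes of the other lists and none of all probe sets passed (limma, with 4, 35 and 4450 at an unadjusted p under 0.05). Leaving out 1 array gave 2.10 to 2.30 log2 for TAGLN, -0.00066 to 0.59 log2 for ACTA2 and 1.58 to 2.28 log2 for TAGLN minus ACTA2. It gave 0 to 2 member probe sets called and 0 to 16 list genes called, while 1 to 2012 of all probe sets passed. ACTA2 changed sign with the array sets as a block (-0.15 log2) and without treated array 2 (-0.00066 log2), and TPM2 without basal array 3 (0.16 log2) or treated array 1 (0.07 log2), with values from -0.20 to 0.16 log2 when 1 array was left out. The second TPM2 probe set changed sign without basal array 1 (0.023 log2), in a range of -0.14 to 0.023 log2. None of these was called, and the cause was not tested. List genes called were 4, and 17 with the array sets as a block, which included the 4. In that block fit 1348 of all 24016 probe sets passed, against 158 in the main fit. A further quantile normalization gave 100 called probe sets (57 higher, 43 lower), against 158 (73 higher, 85 lower). The labels do not say that the replicate number pairs arrays, and same-numbered arrays correlated in their deviations at 0.672, -0.455 and 0.687, so no pairing was assumed. The number of arrays and the lack of detection calls limit every value.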
